A study of Mus with 18 samples.

Results

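The genes described are 10 mouse genes that carry, export, break down or store lipid, namely Apoa1, Apoa4, Apoe, Apod, Abca1, Abcg1, Lpl, Angptl4, Plin2 and Lipe. All 10 were found by gene symbol among the 21401 symbols of each of the 2 expression tables, one for C2C12 cells and one for gastrocnemius muscle. The set was chosen from values in these data, because the FPKM of Apoa1 and Apoa4 was higher in muscle labelled LPS than in control muscle. FPKM expresses reads per gene relative to the length of the transcript and the depth of the library. Muscle LPS against control is therefore a description without a test for every gene here, and so are Apoa1 and Apoa4 in the other muscle comparisons, which share those libraries.

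The series holds 18 libraries, 3 for each of 6 groups, all labelled wild type. The cells are labelled C2C12, a line of mouse myoblasts. They were labelled as vehicle control, as treated with lipopolysaccharide (LPS, a bacterial cell wall component, 1 μg/mL) or as treated with LPS and moringa isothiocyanate-1 (MIC-1, a plant compound, 10 μM), for 24 h. The study's results text names a lower concentration of MIC-1 in the sequenced cells than the labels do. The muscle came from male C57BL/6 mice given vehicle, LPS (10 mg/kg, injected into the abdomen, 16 h before collection), or MIC-1 (80 mg/kg by gavage on each of 3 days) followed by the same LPS. The labels call the vehicle saline, whereas the study names ethanol in cells and DMSO in mice. The muscle had been cleaned of adhering fat and connective tissue. The age of the mice, and whether a library holds 1 animal or a pool, are not given in the sources used here. The study speaks of repeated experiments in general, but no source used here ties the cell libraries to separate cultures, so p-values measure only the spread between these libraries. No sequence of these genes is shown, since none was among the files used.

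Apolipoproteins are the protein part of lipoproteins. ApoA-I, made mainly by liver and intestine, is the main protein of high-density lipoprotein (HDL), and apoA-IV is made mainly by intestine. ApoE directs lipoproteins to receptors and is also secreted by macrophages, and apoD is a small lipid carrier made in many tissues. The transporters ABCA1 and ABCG1 move cholesterol out of cells onto apoA-I and HDL. Lipoprotein lipase (Lpl) splits triglyceride of circulating lipoproteins, which feeds muscle, and Angptl4 inhibits it. Inside cells, perilipin 2 (Plin2) coats lipid droplets, and hormone-sensitive lipase (Lipe) breaks stored lipid down.

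The labels were first held against marker genes. In the cells, the summed FPKM of 13 myogenic genes was between 0.277 and 0.558 in control, between 0.448 and 2.67 in LPS, and between 944 and 1201 in LPS-MIC-1. The sum of 15 macrophage genes was 9658 to 9711 in control and 6894 to 7066 in LPS, and it was 269, 80.7 and 91.2 in LPS-MIC-1 replicates 1, 2 and 3. The markers of a myoblast were thus near 0 in the 6 cell libraries labelled control and LPS, where those of macrophages were high. The 14 LPS-induced genes summed to between 328 and 338 (control), 5916 and 5960 (LPS) and 1055 and 1241 (LPS-MIC-1) in the cells, so that this list was highest in LPS. A group name below stands for the libraries with that label only. Every difference between LPS-MIC-1 and the other cell groups moved together with these lists, and the part of cell identity in it cannot be told apart from that of treatment.

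In muscle, all 15 muscle fibre genes were over 1 FPKM in every library, with sums of 204163 to 276635. The sum of 14 genes that LPS is known to induce lay between 40.6 and 42.6 in control, between 38.6 and 39.6 in LPS, and between 1883 and 2095 in LPS-MIC-1, mostly Lcn2 and Saa3. Muscle labelled LPS thus did not exceed control on this list. Macrophage genes summed to 30.7 to 36.7 in control, 47.0 to 49.7 in LPS, and 49.4, 48.9 and 198 in LPS-MIC-1 replicates 1, 2 and 3. In bulk tissue, fewer cells of a type and less RNA per cell cannot be told apart.

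Apoa1 and Apoa4 stood out in muscle labelled LPS, at low levels. Apoa1 had 0.646, 0.183 and 0.277 FPKM in the control libraries, 3.82, 3.28 and 2.96 in LPS and 1.54, 0.523 and 1.24 in LPS-MIC-1. All LPS libraries lay above all others, and control and LPS-MIC-1 overlapped. The mean was 3.35 ± 0.434 FPKM (SD, n = 3) in LPS, 9.09-fold that of control (0.369 ± 0.245) and 3.04-fold that of LPS-MIC-1 (1.1 ± 0.525).

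Apoa4 was sharper. It had 0.0996, 0.0494 and 0.250 FPKM in control, 3.46, 3.93 and 3.34 in LPS, and 0.0980, 0.141 and 0.313 in LPS-MIC-1. Again all LPS libraries stood above the rest, while control and LPS-MIC-1 covered the same range. The LPS mean of 3.58 ± 0.313 FPKM was 26.9-fold the control mean (0.133 ± 0.104) and 19.4-fold the LPS-MIC-1 mean (0.184 ± 0.114). On the log2(FPKM + 0.1) scale, on which all fitted differences below stand and which understates changes of low genes, LPS minus control was 3.00 for Apoa1 and 4.07 for Apoa4. Among all 9475 genes tested in this comparison, 1.25% passed an absolute log2 fold change over 1 with an adjusted p under 0.05. Of the 10 genes, 9 had a mean FPKM over 1 in muscle and entered the fit, and Apoa1 and Apoa4 are the 2 that passed, which is how they were chosen. Both entered only through their LPS libraries, since the mean over the other 6 libraries was 0.736 FPKM for Apoa1 and 0.159 for Apoa4.

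In the mouse genome (gene order of GRCm38), Apoa1, Apoc3, Apoa4 and Apoa5 lie next to one another in that order. The neighbours did not share the level. Apoc3, an inhibitor of lipoprotein lipolysis, was listed at 0 in 8 muscle libraries and at 0.220 FPKM in LPS replicate 3. Apoa5, an activator of lipolysis made in liver, was listed at 0 in all control and LPS libraries and reached 0.0619 FPKM in LPS-MIC-1. Apob, the structural protein of chylomicrons, lay between 0 and 0.101 FPKM in all 9 libraries, with its highest values (0.0646, 0.0539 and 0.101) in LPS.

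Markers of tissues that make apoA-I and apoA-IV were set beside these levels. The 15 intestinal genes summed to between 8.57 and 10.1 FPKM (control), 10.4 and 14.2 (LPS) and 23.0 and 24.3 (LPS-MIC-1). Lgals4, with a mean of 18.2 FPKM in LPS-MIC-1 and 4.45 in LPS, carried the last of these sums. The median gene of the list lay between 0.0689 and 0.112 FPKM (control), 0.198 and 0.208 (LPS) and 0.0740 and 0.127 (LPS-MIC-1). The sum was thus highest in LPS-MIC-1 and the median in LPS, and 2 or 3 of the 15 were over 1 FPKM in every library. Of single genes, picked after their values were seen, Fabp2 (fatty acid binding in enterocytes) had 0.472, 0.0950 and 0.656 FPKM in LPS and 0 in all LPS-MIC-1 libraries, with 0, 0 and 0.0935 in control. Krt20 (an epithelial keratin) had 0.295, 0.592 and 0.335 FPKM in LPS against at most 0.0830 elsewhere, and Krt8 had 0.546 to 0.599 in LPS against 0.136 to 0.492 elsewhere. These picked genes were all highest in LPS on average and do not stand for the list. Lgals4 and the sum of the list were highest in LPS-MIC-1. The 14 liver genes summed to between 2.72 and 3.77 (control), 1.74 and 2.77 (LPS) and 8.98 and 13.0 (LPS-MIC-1). Albumin was at 0, 0.0394 and 0 FPKM in the LPS libraries. What part these tissues have in the Apoa1 and Apoa4 levels was not tested.

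The genes whose profile over the 9 muscle libraries was most like that of Apoa4 (smallest root mean square difference of centred log2 values) were G0s2 (0.866), Cilp (1.03), Apoa1 (1.06), Calml4 (1.21) and Ogt (1.23). For Apoa1 they were Xlr3b (0.659), Myh1 (0.666), Bdh1 (0.750), G0s2 (0.796) and Rmnd1 (0.805). G0s2 encodes an inhibitor of the lipid droplet lipase Pnpla2. It had 9.54, 9.56 and 9.85 FPKM in control, 44.5, 49.6 and 49.0 in LPS and 9.51, 8.57 and 7.94 in LPS-MIC-1. It was likewise highest in the LPS libraries, at a higher level than both apolipoproteins.

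**Figure D1:**
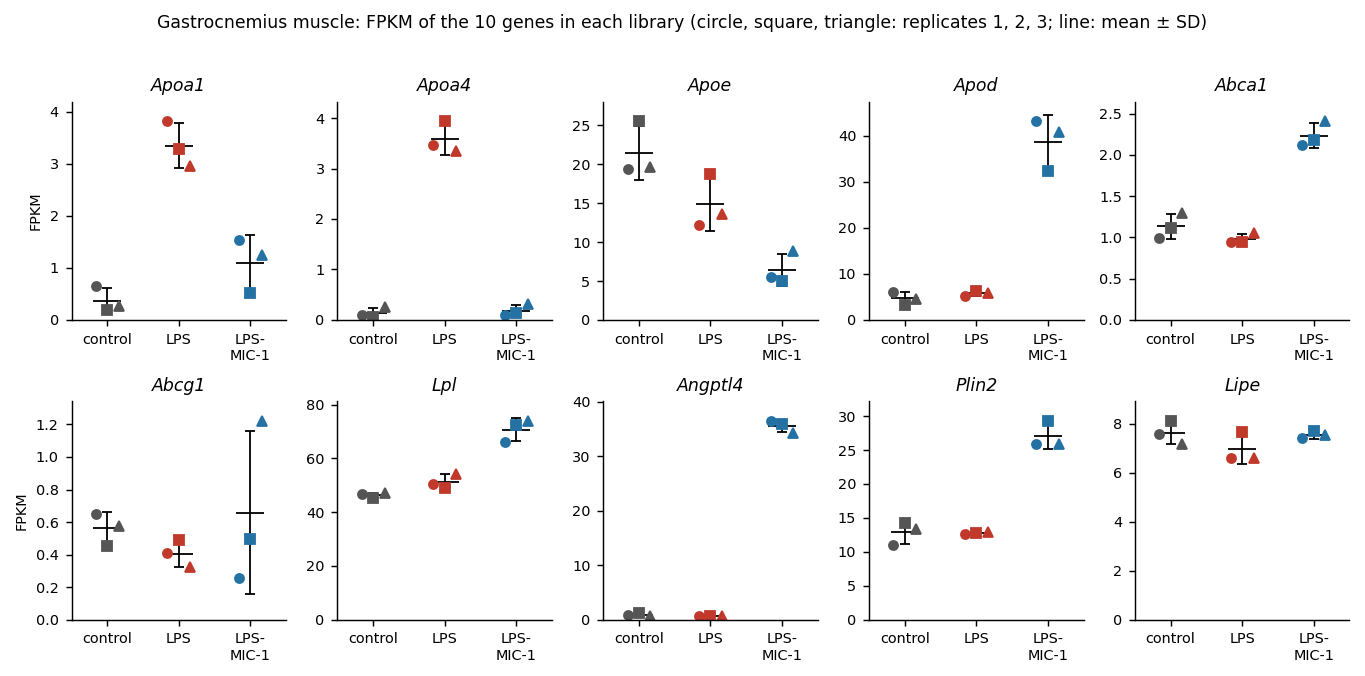
FPKM of the 10 genes (vertical axes, linear, from 0) in each gastrocnemius library of the groups labelled control, LPS and LPS-MIC-1, with the mean ± SD of 3 libraries. Apoa1 and Apoa4 are highest in the 3 LPS libraries, and Angptl4, Apod, Plin2 and Abca1 in the 3 LPS-MIC-1 libraries.

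The counts behind these levels can be read from the authors' own results tables, which give for each gene the mean normalized count over the libraries compared. In the table of LPS-MIC-1 against LPS this mean was 24.8 for Apoa1 and 38.8 for Apoa4, and in that of LPS-MIC-1 against control it was 8.23 and 3.28. The low control values thus rest on few reads. For each gene the ratio of this mean to the mean FPKM of the same 6 libraries was nearly equal in both tables (11.1 and 11.2 for Apoa1, 20.6 and 20.7 for Apoa4). The table of LPS against control departed from this. It gave 12746 for Apoa1 and 10487 for Apoa4, ratios of 6853 and 5651.

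The other 8 genes departed as well in that table. Lpl, with a mean of 48.8 FPKM in those 6 libraries, had a mean normalized count of 0, as had Apod (5.22 FPKM), Abca1 (1.06 FPKM) and Abcg1 (0.484 FPKM). Apoe (18.2 FPKM) had a mean count of 8.96, against 163 and 215 in the other muscle tables. Angptl4 had 543, Plin2 3291 and Lipe 797. The neighbour Apoc3 had 399 and Apob 24673, although both are near 0 in the FPKM.

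Across genes, the Spearman correlation between the authors' mean count and mean FPKM was 0.685 in this table and 0.974 to 0.979 in the 5 others. Of 15 muscle fibre genes, 9 had a mean count of 0 in it, and of 15 intestinal genes 11 exceeded 1000. In both other muscle tables all 15 fibre genes and no intestinal gene exceeded 1000. How this table was made was not tested, and no other value below comes from it.

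**Figure D2:**
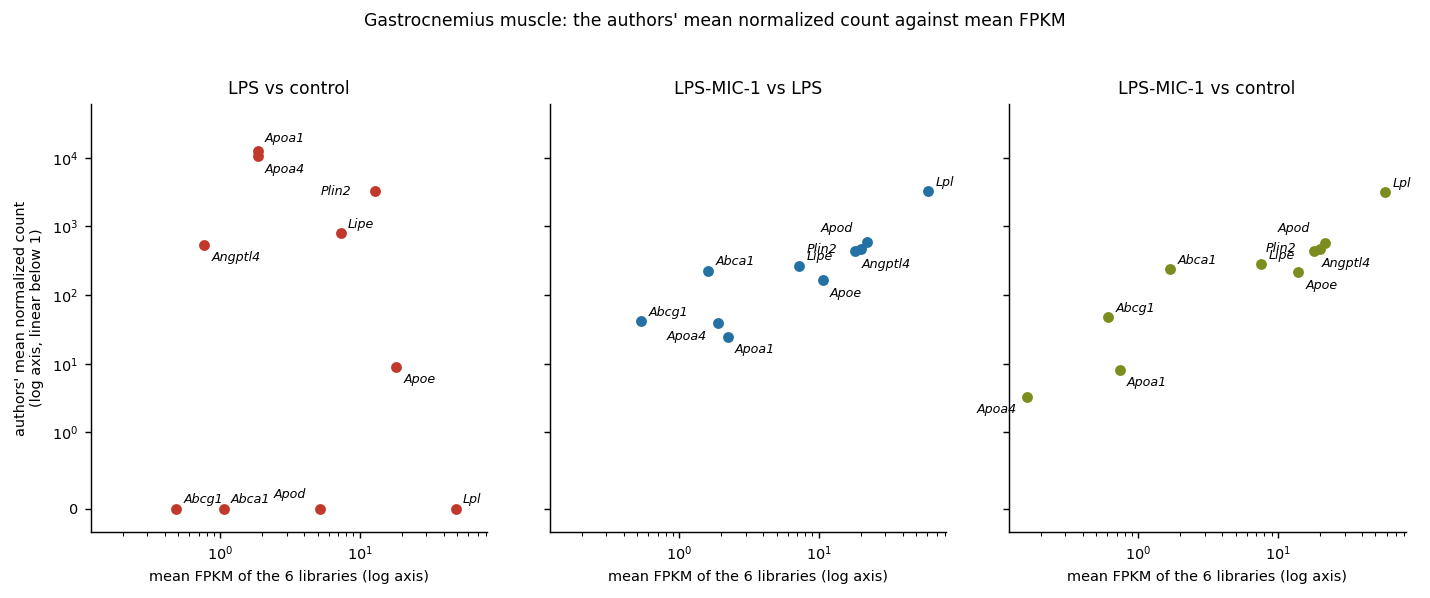
The authors' mean normalized count of each of the 10 genes (vertical, log axis, linear below 1) against the mean FPKM of the 6 muscle libraries compared (horizontal, log axis), 1 panel per deposited comparison. In the LPS against control panel Apoa1 and Apoa4 sit at 12746 and 10487 and Lpl, Apod, Abca1 and Abcg1 at 0, whereas in both other panels the genes lie along a rising band.

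Muscle labelled LPS-MIC-1 differed from both other groups in more of the 10 genes. Leaving out Apoa1 and Apoa4, 7 of the 8 remaining genes were tested. Of these, 5 passed against LPS (4 higher, 1 lower) and 4 against control (3 higher, 1 lower). Over all tested genes, 15.1% passed against LPS and 15.5% against control. Angptl4 entered only through LPS-MIC-1, and without it the counts were 4 and 3 of 6, with medians of 0.77 and 0.76. The 2 comparisons share the LPS-MIC-1 libraries. The median log2 fold change of the 7 was 1.07 against LPS and 0.92 against control, beside -0.01 and 0.01 over all genes. Adjusted p-values come from limma with Benjamini-Hochberg adjustment over all genes tested, since an exact permutation test of 3 against 3 libraries cannot go below p = 0.1. Of the 1431 genes called against LPS, 64.0% were higher in LPS-MIC-1, a share that was 53.0% after quantile normalization.

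Among the apolipoproteins of muscle, Apod rose and Apoe fell in LPS-MIC-1. Apod had 6.12, 3.33 and 4.50 FPKM in control, 5.15, 6.31 and 5.93 in LPS, and 43.1, 32.3 and 40.7 in LPS-MIC-1. Control and LPS overlapped, and LPS-MIC-1 stood well above both. The log2 fold change was 2.71 against LPS (SE 0.207, adjusted p = 1.06e-05) and 3.06 against control (SE 0.207, adjusted p = 4.89e-06), a mean 6.67-fold and 8.31-fold higher. Over the same libraries 7 Schwann cell genes summed to between 10.2 and 13.0 FPKM (control), 7.28 and 8.66 (LPS) and 24.3 and 26.5 (LPS-MIC-1), and 9 endothelial genes to between 131 and 139, 86.7 and 92.2, and 148 and 166. The part of these cells in the Apod values was not tested.

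Apoe had 19.4, 25.5 and 19.7 FPKM in control, 12.2, 18.8 and 13.7 in LPS and 5.54, 4.94 and 8.84 in LPS-MIC-1. The 3 groups did not overlap, in the order control, LPS, LPS-MIC-1, although the lowest control library (19.4) and the highest LPS library (18.8) were close. Apoe fell by 1.22 on the log2 scale against LPS (SE 0.240, adjusted p = 0.00269) and by 1.76 against control (SE 0.240, adjusted p = 0.000327). LPS minus control was -0.54. The macrophage list was lowest in control, where Apoe was highest, and the part of macrophages in the Apoe values was not tested. Among the neighbours of Apoe on its chromosome, Apoc1 lay between 0 and 1.55 FPKM over the 9 libraries with overlapping groups, and Apoc4 between 0 and 0.223.

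Of the cholesterol exporters, Abca1 rose moderately. It had 0.997, 1.12 and 1.30 FPKM in control, 0.947, 0.942 and 1.05 in LPS, and 2.12, 2.18 and 2.41 in LPS-MIC-1. The latter lay above all other libraries, while control and LPS overlapped. The log2 fold change was 1.11 against LPS (SE 0.15, adjusted p = 0.000310) and 0.92 against control (SE 0.15, adjusted p = 0.000895), so that the fold threshold was passed against LPS only. The call against LPS was lost with a pseudocount of 1 (0.71) and with quantile normalization. Abcg1 had 0.651, 0.454 and 0.577 FPKM in control, 0.407, 0.487 and 0.326 in LPS, and 0.256, 0.495 and 1.22 in LPS-MIC-1, with overlap among all groups. Its mean was 1 FPKM or under, so it was not tested. The highest value came from LPS-MIC-1 replicate 3, the library with the macrophage sum of 198 against 48.9 and 49.4 in the other replicates, and Lipa (lysosomal acid lipase) was 5.63 FPKM there against 1.60 and 1.39. The part of macrophages in these values was not tested.

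Angptl4, the inhibitor of lipoprotein lipase, had 0.808, 1.14 and 0.641 FPKM in control, 0.601, 0.689 and 0.724 in LPS, and 36.4, 35.9 and 34.2 in LPS-MIC-1. Control and LPS overlapped. Over those 6 libraries its mean was 0.768 FPKM, so it entered the fit only through the LPS-MIC-1 libraries, where it was high, and had to differ. The mean of LPS-MIC-1 was 52.9-fold that of LPS (log2 fold change 5.53) and 41.1-fold that of control (5.24), given without p-values for that reason.

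Lpl itself moved less. It had 46.6, 45.4 and 46.9 FPKM in control, 50.5, 48.8 and 54.3 in LPS, and 66.0, 72.3 and 73.8 in LPS-MIC-1. The 3 groups did not overlap. LPS-MIC-1 was higher than LPS by 0.46 (SE 0.0538, adjusted p = 0.000129) and than control by 0.61 (SE 0.0538, adjusted p = 2.41e-05), both under the fold threshold. LPS minus control was 0.14.

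Of the lipid droplet genes, Plin2 had 10.9, 14.3 and 13.3 FPKM in control, 12.7, 12.7 and 13.0 in LPS, and 25.9, 29.3 and 26.0 in LPS-MIC-1. The LPS values lay within the range of control, and LPS-MIC-1 lay above. The log2 fold change was 1.07 in both comparisons (SE 0.0963, adjusted p = 2.78e-05 against LPS and 2.62e-05 against control). It lies close to the fold threshold, and the call was lost in both with quantile normalization (0.95 and 0.94) and, against control, without control replicate 1 (0.96).

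Lipe had 7.61, 8.11 and 7.20 FPKM in control, 6.60, 7.67 and 6.61 in LPS, and 7.41, 7.70 and 7.54 in LPS-MIC-1, and all groups overlapped. The difference of LPS-MIC-1 from LPS was 0.12 (95% interval -0.05 to 0.29, adjusted p = 0.213) and from control -0.02 (-0.19 to 0.16, adjusted p = 0.879). Of 11 adipocyte genes, 4 were over 1 FPKM in each control and LPS library and 3 in each LPS-MIC-1 library, among them Car3, Fabp4 and Cfd. Leptin was listed at 0 in control and LPS and reached 0.282 FPKM in LPS-MIC-1, resistin was at 0 except for 0.0787 in 1 LPS library, Plin1 was at most 0.216 FPKM, and Adipoq was 0.0700 to 0.777. The list summed to between 5001 and 5157 (control), 3658 and 3693 (LPS) and 3199 and 3467 (LPS-MIC-1), mostly from Car3, which muscle also expresses.

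Other genes of the same pathways were taken from a list of 52 genes found in the tables, 27 of them tested in muscle. Against LPS, 7 rose and 4 fell in LPS-MIC-1, 40.7% of those tested beside 15.1% of all genes, and the median of the 27 was 0.16. Against control, 7 rose and 3 fell (37.0% beside 15.5%, median 0.23). In both comparisons, 4 of 13 lipid droplet genes and 2 of 6 genes of lipoprotein lipolysis and uptake rose, where 9.67% of all genes did against LPS and 9.33% against control. Plin4, a perilipin abundant in muscle and fat, had 37.8 to 38.5 FPKM in LPS but between 237 and 263 in LPS-MIC-1 (log2 fold change 2.70, SE 0.0526, adjusted p = 3.59e-09). Plin5, which ties droplets to mitochondria, had 4.39 to 5.24 FPKM in LPS but between 16.5 and 19.0 in LPS-MIC-1 (1.87, SE 0.137, adjusted p = 8.17e-06). G0s2 fell by 2.45 from the LPS values given above. It was singled out above for being high in those libraries, so no p-value is given and the fall is no separate result.

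Against control the differences of Plin4 and Plin5 were 3.27 and 2.84, from 24.7 to 27.6 FPKM and 1.97 to 2.92 FPKM. Of the genes that fell, Scarb1, the HDL receptor that takes up cholesteryl ester, lay between 8.72 and 12.2 FPKM (control), 5.49 and 7.68 (LPS) and 1.26 and 3.01 (LPS-MIC-1), and fell by 1.72 against LPS (adjusted p = 0.000985) and 2.38 against control (adjusted p = 0.000143). Nceh1, a cholesteryl ester hydrolase, fell by 1.93 against LPS, from between 4.96 and 5.37 FPKM to between 1.08 and 1.40. Against control, Pltp, which transfers phospholipid to HDL, fell by 1.92 (adjusted p = 3.09e-06), and Mgll, which splits monoglyceride, by 1.11 (adjusted p = 2.05e-05). The sterol-sensing receptor Nr1h3 differed by 0.51 (adjusted p = 0.0666) and 0.22 (adjusted p = 0.400). Between LPS and control, as a description, 2 of the 27 passed the thresholds, G0s2 (2.29) and Nceh1 (1.23), 7.41% beside 1.25% of all genes, with a median of 0.09. The lower values of G0s2 and Nceh1 in LPS-MIC-1 against the same LPS libraries are thus no separate result.

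In the cells, the 10 genes covered a wider range. Of the 10, 7 had a mean FPKM over 1 and were tested, and a call needed a log2 fold change beyond 1 in either direction at an adjusted p under 0.001. Apoe entered only through its LPS-MIC-1 libraries. Between LPS and control 4 of the 7 passed (2 higher, 2 lower in LPS), where 20.9% of all 10877 genes did. Between LPS-MIC-1 and LPS 7 of 7 passed (2 higher, 5 lower), where 49.9% of all genes did. Between LPS-MIC-1 and control 6 of 7 passed (2 higher, 4 lower), where 43.3% did. Without Apoe the counts are 4, 6 and 6 of 6. With these backgrounds a call is common among genes of any kind.

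Apoa1 and Apoa4 were near the lower end in cells. Apoa1 had 0.126, 0 and 0.0612 FPKM in control, 0.370, 0.598 and 0.373 in LPS and 0, 0.281 and 2.81 in LPS-MIC-1. Its LPS values all lay above those of control, and LPS-MIC-1 overlapped both. Apoa4 was listed at 0 in 6 of the 9 libraries, at 0.101 in control replicate 1, at 0.0800 in LPS replicate 3 and at 3.19 in LPS-MIC-1 replicate 3. That library held the highest value of both genes. It also held the highest sum of the 15 intestinal genes, 27.6 FPKM against 1.78 and 2.36 in the other LPS-MIC-1 replicates, with 8 of the 15 over 1 FPKM against 1 in each of those. The part of intestinal RNA in these values was not tested. Neither gene was tested, and neither passed when the filter on low values was dropped (adjusted p = 0.187 to 0.895 for Apoa1 and 0.329 to 1 for Apoa4).

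Apoe and Apod were seen mainly in LPS-MIC-1. Apoe had 0, 0.270 and 0.356 FPKM in control, 0, 0.704 and 0 in LPS, and 9.79, 4.86 and 5.75 in LPS-MIC-1. Control and LPS overlapped, and all LPS-MIC-1 libraries lay above. The log2 fold change was 5.04 against LPS and 4.68 against control (SE 0.902). Apoe entered the fit only through LPS-MIC-1, so a difference of that group was built in and no p-value is given for it. Its place in the counts above is for the same reason no result. LPS minus control was -0.36 (95% interval -2.44 to 1.73, adjusted p = 0.761), whereas the mean FPKM was 0.235 in LPS and 0.208 in control, so no direction can be given. The size of the difference from LPS depends on the pseudocount, from 2.66 to 7.29. Apod was listed at 0 in the 6 control and LPS libraries and had 1.29, 1.94 and 2.39 FPKM in LPS-MIC-1. It was not tested, because only its LPS-MIC-1 libraries were above 0. The summed fibroblast markers, like Apoe and Apod, were low in control (at most 0.572 FPKM) and LPS (at most 2.17) and lay between 465 and 562 in LPS-MIC-1, and their part in these values was not tested. Apoe was near 0 in the 6 libraries with high macrophage markers, and the part of macrophages in its values was not tested.

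Abca1 and Abcg1 parted ways between control and LPS. Abca1 had 3.32, 2.95 and 2.87 FPKM in control, 12.9, 13.3 and 12.1 in LPS and 1.62, 1.09 and 1.33 in LPS-MIC-1. The groups did not overlap. It was 4.20-fold higher in LPS than in control (log2 fold change 2.04, SE 0.144, adjusted p = 7.02e-06) and 9.5-fold lower when LPS-MIC-1 was set against LPS (-3.17, SE 0.144, adjusted p = 1.75e-07).

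Against control, Abca1 fell by 1.14 in LPS-MIC-1 (SE 0.144, adjusted p = 0.000116). That call was lost with a pseudocount of 1 (-0.79) and in the fit of only the 6 libraries compared, where the value stayed at -1.14 and the adjusted p was 0.00147. Abcg1 had 54.9, 53.5 and 51.7 FPKM in control, 26.2, 27.3 and 26.9 in LPS and 4.78, 4.64 and 5.33 in LPS-MIC-1, a stepwise order without overlap. LPS minus control was -0.99 (SE 0.0614, adjusted p = 3.41e-06), just inside the fold threshold, and it passed without control replicate 3 (-1.01), without LPS replicate 2 (-1.003) and with quantile normalization (-1.11). LPS-MIC-1 was 5.45-fold lower than LPS (-2.43, SE 0.0614, adjusted p = 1.01e-08) and 10.8-fold lower than control (-3.41, SE 0.0614, adjusted p = 2.83e-09).

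The 5 genes whose profile over the 9 cell libraries was most like that of Abca1 were Sesn2 (root mean square difference 0.0996), Lrrk2 (0.111), Alcam (0.138), Lass4 (0.142) and Ndrg1 (0.157). Sesn2, for example, had means of 12.5, 44.8 and 5.51 FPKM in control, LPS and LPS-MIC-1. For Apoe they were Gjc1 (0.761), Cxxc5 (0.780), Gng11 (0.811), Cdsn (0.823) and Zfp365 (0.861), all at most 0.280 FPKM on average in control and LPS.

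Lpl and Angptl4 went in opposite directions between LPS-MIC-1 and LPS. Lpl had 286, 300 and 294 FPKM in control, 84.1, 84.5 and 84.9 in LPS and 14.8, 12.1 and 14.2 in LPS-MIC-1. The groups stood far apart. Lpl was 3.47-fold lower in LPS than in control (-1.79, SE 0.0718, adjusted p = 3.96e-07), and in LPS-MIC-1 6.16-fold lower than in LPS (-2.62, SE 0.0718, adjusted p = 1.40e-08) and 21.4-fold lower than in control (-4.41, SE 0.0718, adjusted p = 1.94e-09).

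Angptl4 had 5.0, 4.54 and 4.8 FPKM in control, 0.821, 1.03 and 1.16 in LPS and 45.5, 59.9 and 52.5 in LPS-MIC-1. Of the 7 tested among the 10 genes, only Angptl4 was lowest in all 3 LPS libraries and highest in all 3 LPS-MIC-1 libraries. The order was not particular to Angptl4, since the pathway genes Pltp and Dgat2 showed it as well. Angptl4 fell by 2.15 between control and LPS (SE 0.143, adjusted p = 4.83e-06). It was 52.4-fold higher in LPS-MIC-1 than in LPS (5.58, SE 0.143, adjusted p = 1.05e-08) and 11-fold higher than in control (3.43, SE 0.143, adjusted p = 1.18e-07).

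Plin2 was the most abundant of the 10 genes in cells labelled LPS. It had 108, 111 and 108 FPKM in control, 999, 1017 and 1000 in LPS and 256, 249 and 273 in LPS-MIC-1. The 3 groups were far apart compared with their spread. Plin2 was 9.23-fold higher in libraries labelled LPS than in control (3.20, SE 0.0443, adjusted p = 4.55e-09). In those labelled LPS-MIC-1 it was 3.88-fold lower than in LPS (-1.96, SE 0.0443, adjusted p = 6.74e-09) and 2.38-fold higher than in control (1.25, SE 0.0443, adjusted p = 4.70e-08). The last call was lost with quantile normalization (0.80).

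Lipe, the lipase of stored lipid, had 17.3, 17.1 and 15.5 FPKM in control, 10.9, 12 and 12.2 in LPS and 5.64, 5.27 and 5.78 in LPS-MIC-1, with no overlap. LPS minus control was -0.51 (SE 0.0769, adjusted p = 0.000563), under the fold threshold. LPS-MIC-1 fell by 1.06 against LPS (SE 0.0769, adjusted p = 2.96e-06) and by 1.56 against control (SE 0.0769, adjusted p = 3.15e-07). The first of these was lost with a pseudocount of 1 (-0.95) and with quantile normalization (-0.82).

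**Figure D3:**
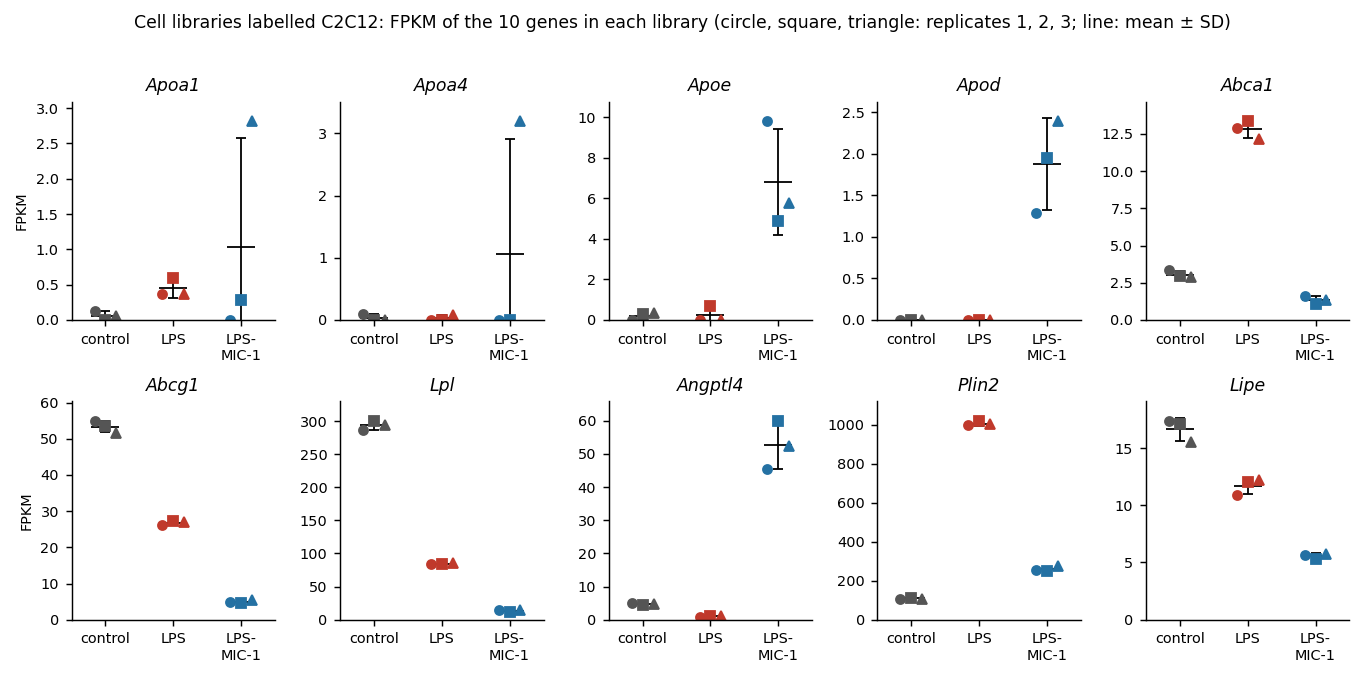
FPKM of the 10 genes (vertical axes, linear, from 0) in each library labelled C2C12, by group, with the mean ± SD of 3 libraries. Plin2 and Abca1 peak in LPS, Lpl, Abcg1 and Lipe step down from control to LPS-MIC-1, Angptl4, Apoe and Apod are highest in LPS-MIC-1, and 1 LPS-MIC-1 library holds the highest Apoa1 and Apoa4 values.

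Of the 52 further genes, 27 were tested in cells. Between LPS and control 6 rose and 2 fell (29.6% beside 20.9% of all genes, median 0.26). Of the 27, 7 entered the fit through 1 group only (Clu through LPS, Dgat2, G0s2, Lcat and Mttp through LPS-MIC-1, Nr1h3 and Sort1 through control), so that a difference of that group was built in. Without them 5 rose and 2 fell of 20 between LPS and control, 1 rose and 8 fell between LPS-MIC-1 and LPS, and 3 rose and 6 fell between LPS-MIC-1 and control. Clu, a secreted lipoprotein-associated chaperone also called apolipoprotein J, had 0.455 to 0.931 FPKM in control and 8.95 to 9.5 in LPS (3.64). No p-value is given for Clu, since it entered through LPS only. Hilpda, a droplet protein listed under its older name 2310016C08Rik, had 30.7 to 32.7 FPKM in control and 376 to 379 in LPS (3.57, SE 0.0740, adjusted p = 2.27e-08). Soat2, which esterifies cholesterol, rose by 2.76 (SE 0.258, adjusted p = 3.38e-05). Pltp fell by 1.92 (SE 0.0441, adjusted p = 3.78e-08), and Scarb1 by 1.23 (SE 0.0639, adjusted p = 1.37e-06).

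When LPS-MIC-1 was compared with LPS, 5 of the 27 rose and 9 fell (51.9% beside 49.9%, median -0.99). Of the 12 tested genes of cholesterol export and HDL, 6 fell and 2 rose, where 25.6% of all genes fell and 24.3% rose. Clu, again without a p-value, fell by 5.01, Soat2 by 3.81 (SE 0.258, adjusted p = 1.93e-06) and Hilpda (2310016C08Rik) by 3.21 (SE 0.0740, adjusted p = 7.12e-09). These genes were named for their rise in the same LPS libraries, so a lower value here is no separate result. G0s2 was listed at 0 in all control and LPS libraries and had 3.79, 4.17 and 4.06 FPKM in LPS-MIC-1, which is given without a test since the gene entered through these libraries only. Dgat2, which makes triglyceride, likewise entered through LPS-MIC-1 only and was higher by 3.16, also without a test. Pltp rose by 2.98 (SE 0.0441, adjusted p = 2.78e-09).

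Against control, 7 of the 27 rose in LPS-MIC-1 and 7 fell (51.9% beside 43.3%, median -0.30). Beside G0s2, Lcat, which esterifies cholesterol in HDL, was higher by 3.09 and Dgat2 by 2.37. These genes entered through LPS-MIC-1 only and are given without a p-value. Lipa fell by 3.78 (SE 0.119, adjusted p = 2.45e-08), Scarb1 by 3.54 (SE 0.0639, adjusted p = 2.88e-09) and Bscl2, a protein of droplet formation, by 2.95 (SE 0.474, adjusted p = 0.000493). The Bscl2 call held in 6 of 9 other settings and in 2 of 9 fits without 1 library. Nr1h3 lay between 1.84 and 2.60 FPKM (control), 0.470 and 1.5 (LPS) and 0 and 1.59 (LPS-MIC-1). It entered through control only, so no p-value is given for the comparisons with control. Between LPS-MIC-1 and LPS it did not pass (adjusted p = 0.184). Of the remaining apolipoproteins, Apoc3 and Apoa5 were listed at 0 in all 9 cell libraries, Apoc1 was at most 0.414 FPKM and Apoc4 was at 0 in 8 of 9.

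**Figure D4:**
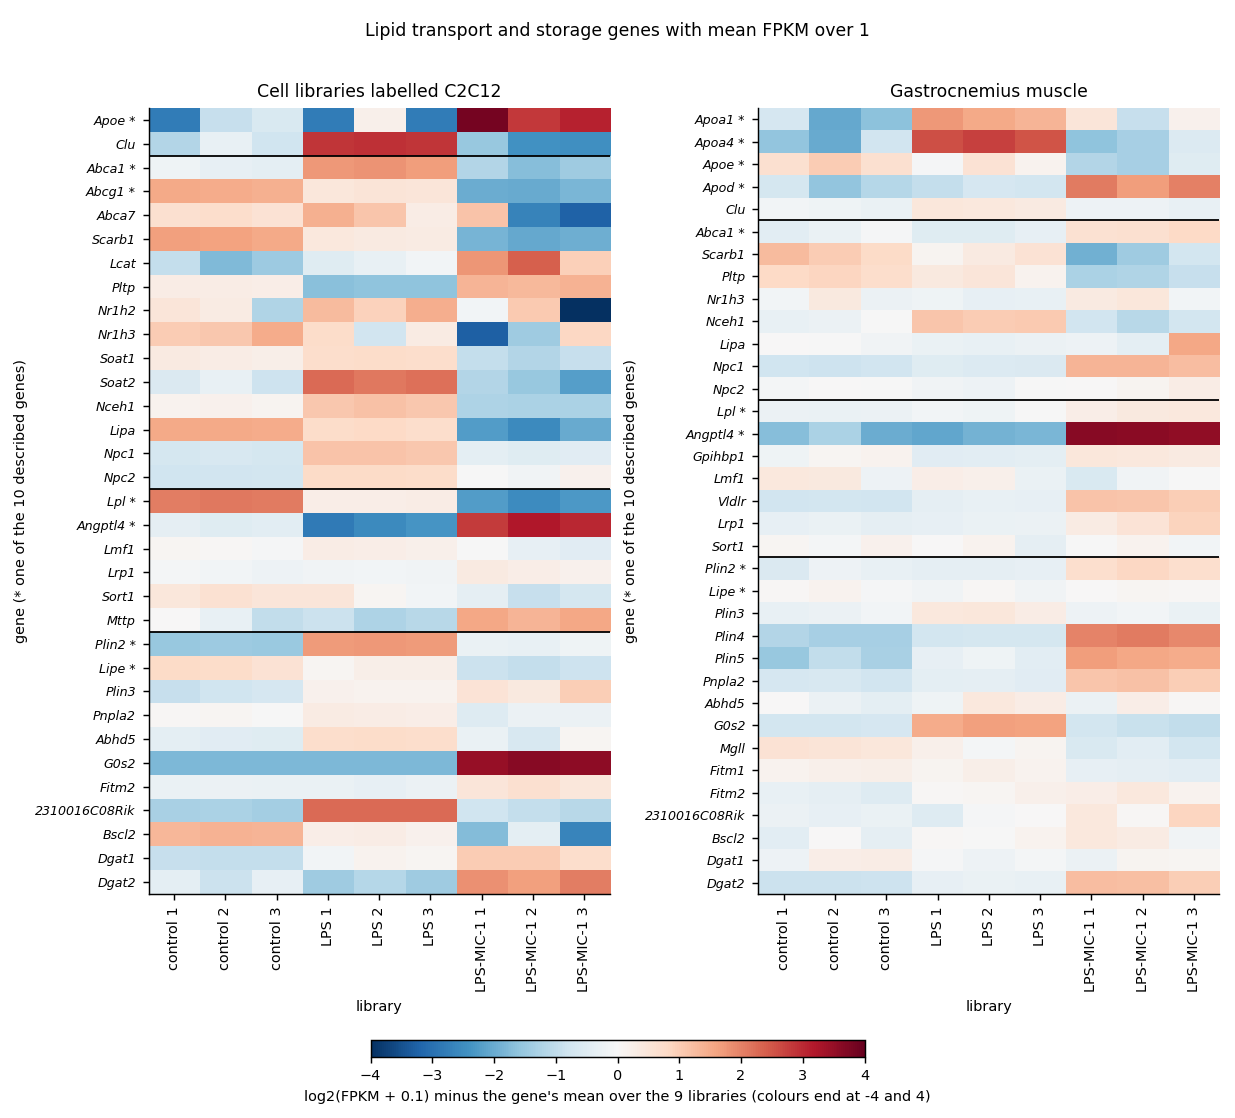
log2(FPKM + 0.1) minus the mean of each gene over 9 libraries (colour, -4 to 4) for the 10 genes (starred) and the listed pathway genes with a mean FPKM over 1 (1 of them not shown), 1 column per library, in 4 blocks from apolipoproteins at the top to lipid droplet genes at the bottom. In muscle, Plin4, Plin5, Pnpla2 and Dgat2 are highest in LPS-MIC-1 with Angptl4 and Plin2, and G0s2 is highest in LPS with Apoa1 and Apoa4.

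Set side by side, the experiments did not share directions for several genes. The 2 tables were normalised apart, so no test was made across them. Between LPS-MIC-1 and LPS the log2 fold change of Angptl4 was 5.58 in cells and 5.53 in muscle. For Abca1 it was -3.17 in cells and 1.11 in muscle, for Plin2 -1.96 and 1.07, for Lpl -2.62 and 0.46, and for Apoe 5.04 and -1.22. In each of these 4 pairs the libraries did not overlap in either experiment, and the signs were opposite. How many of all genes do the same was not counted. In this comparison 49.9% of all tested genes were called in cells and 15.1% in muscle. Apoe entered the cell fit through LPS-MIC-1 only. Between LPS and control Plin2 differed by 3.20 in cells and by -0.00 in muscle, and Abca1 by 2.04 and -0.19.

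**Figure D5:**
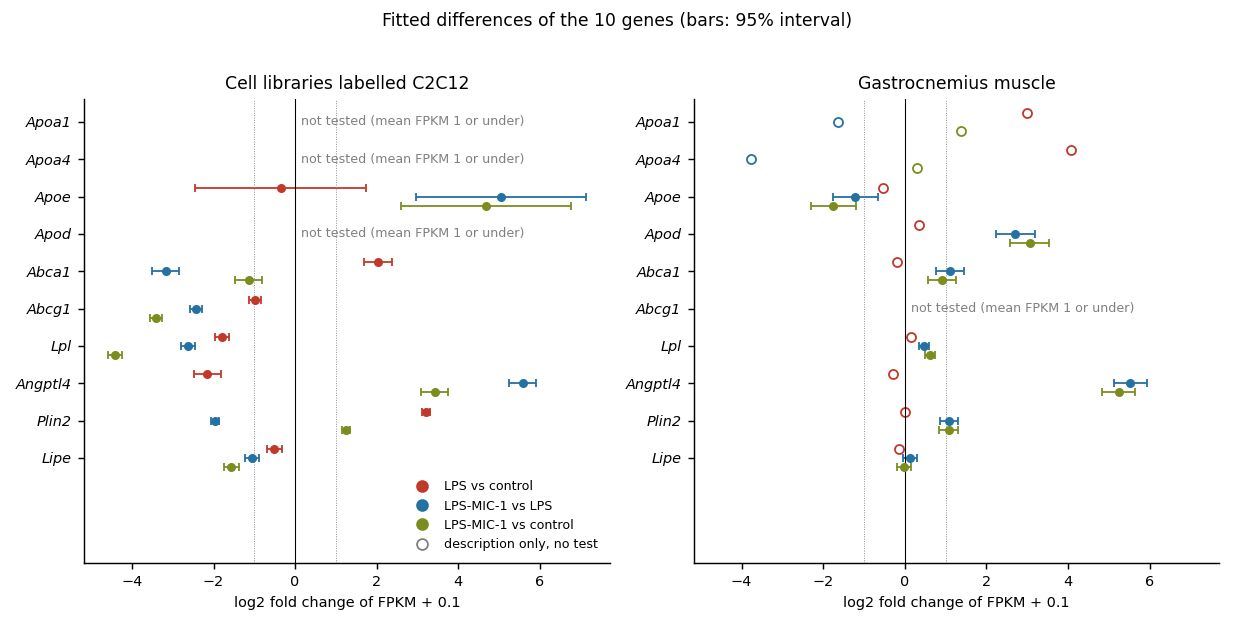
Fitted log2 fold change of FPKM + 0.1 (horizontal) for each of the 10 genes (vertical) in the 3 comparisons, with 95% intervals, cells on the left and muscle on the right, dotted lines at -1 and 1. Open circles are described without a test. Angptl4 in muscle and Apoe in cells are drawn with intervals, although the filter built in their LPS-MIC-1 differences, so those intervals are no test. The Angptl4 points of LPS-MIC-1 lie beyond 3 in both experiments, whereas those of Abca1 and Lpl lie on opposite sides of 0.

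The order of levels by FPKM also differed. In cells labelled control it ran from Lpl (293 FPKM on average) through Plin2 (109), Abcg1 (53.3), Lipe (16.6), Angptl4 (4.78) and Abca1 (3.05) to the 4 apolipoproteins at 0.208 or less, whose ranges overlapped. In LPS the order began with Plin2 (1005) and Lpl (84.5), and in LPS-MIC-1 with Plin2 (259), Angptl4 (52.6) and Lpl (13.7). In muscle Lpl led in every group (46.3, 51.2 and 70.7 FPKM in control, LPS and LPS-MIC-1). Apoe was second in control (21.5) and LPS (14.9), where its range overlapped that of Plin2. In LPS-MIC-1 Apod (38.7) and Angptl4 (35.5), which overlapped, took the next places, and Apoe was sixth. Apoa4 was last in control and LPS-MIC-1 and sixth in LPS.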

How the data were processed

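Reads of 18 libraries were quantified by the authors with kallisto and summarised per gene with tximport, and the deposited values are FPKM, 1 per gene symbol and library. The submitters' processing notes name mm9. FPKM does not give reads per library, so depth is unknown, no counting interval was computed, and values near 0 rest on few reads. From the authors' DESeq2 results tables only the deposited mean normalized count was used, as the authors' mean. Their log2 fold changes and p-values were not used. The muscle table holds 9 unnamed per-sample columns, left unused because their samples are not named.

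Each experiment was fitted apart with limma 3.58.1 (R 4.3.3) on log2(FPKM + 0.1), with 3 group means over 9 libraries and a trended eBayes step, for genes with a mean FPKM over 1, with Benjamini-Hochberg adjustment across every gene in the fit. A call needed a log2 change beyond 1 in either direction, at adjusted p under 0.001 for cells and 0.05 for muscle. The thresholds for cells are those of the study. For muscle the study paired the fold threshold with p under 0.05, and named adjusted p under 0.05 for the genes it clustered. The steps were tested on simulated data. Each fit was repeated with a pseudocount of 1 or 0.01, with the filter dropped (above 0 in at least 3 libraries) or raised to a mean of 5, after quantile normalization or scaling by median ratios, with a replicate block, with an untrended eBayes step, on the 6 libraries of a comparison alone, and without each library in turn.

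The 10 genes, the pathway and marker lists and the tests were chosen with earlier results of these data known. Named pathway genes are the 3 largest called changes per comparison and direction, Apoa5, Apoc1, Apoc3, Apoc4, Nr1h3 and Scarb1, and the 5 most alike profiles. One gene that this rule names is counted in its list but not reported here. Of each marker list the most abundant genes and those at 0 could be named. Apob, Pnpla2, Dgat2 in muscle, Lipa in muscle, Mttp, Sort1, Krt8, Krt20 and Fabp2 were chosen after their values were seen. Of 54 listed pathway genes 52 were found, and Apoc2 was not among them. Gene order was taken from a RefSeq table of GRCm38. Figures were drawn with matplotlib 3.10.9.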

Additional observations from a re-analysis of the deposited data

Results flagged for a closer look

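Several of the 10 genes stood without overlap between groups in both experiments but with opposite signs, and the difference between experiments was not tested, since the tables were normalised apart. For LPS against control this held for Lpl (log2 fold change -1.79 in cells and 0.14 in muscle). For LPS-MIC-1 against LPS it held for Abca1 (-3.17 and 1.11), Apoe (5.04 and -1.22), Lpl (-2.62 and 0.46) and Plin2 (-1.96 and 1.07). For LPS-MIC-1 against control it held for Abca1 (-1.14 and 0.92), Apoe (4.68 and -1.76) and Lpl (-4.41 and 0.61). The 3 comparisons share libraries, and in cells the myogenic and macrophage lists moved with the LPS-MIC-1 label. The share of all genes with such opposite signs was not counted, so none of this is shown to be particular to the 10 genes. Apoe entered the cell fit through LPS-MIC-1 only.

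The authors' mean normalized count of Apoa1 (12746) and Apoa4 (10487) in the muscle LPS against control results stood far above those of the other muscle tables (at most 24.8 and 38.8). These values come from a table outside the comparisons made here. How it was made was not tested.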

How the results depend on the processing

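With single libraries left out, the direction of Apoe between cells labelled LPS and control turned, with values from -1.36 to 0.15, and that of Lipe between muscle LPS-MIC-1 and control from -0.0565 to 0.0283. Lipe between muscle LPS-MIC-1 and LPS turned to -0.0363 with quantile normalization. That setting put the median of all genes at -0.12 in this comparison and at -0.11 against control. Against LPS it left 3 genes called in place of 5, out of the 7 tested without Apoa1 and Apoa4. In muscle LPS against control, 118 called genes became 71 with a pseudocount of 1 and 57 with a mean FPKM over 5, the latter leaving 0 of the 10 genes because Apoa1 and Apoa4 fell under the filter. Called genes of muscle LPS-MIC-1 became 2158 against LPS and 2240 against control without the filter, and 656 and 677 with a mean over 5, as more or fewer genes were tested. Same-numbered libraries did not deviate together (correlations from -0.08 to 0.06 in cells and -0.05 to 0.08 in muscle). This gave no sign of pairing by number, but it cannot exclude that such libraries were prepared together. A replicate block gave 2056, 5227 and 4472 called genes in cells and 115, 1431 and 1463 in muscle. Of the 10 genes it called 4, 6 and 6 in cells and 2 in muscle LPS against control. Without Apoa1 and Apoa4 it called 5 against LPS and 4 against control in muscle LPS-MIC-1. The calls of Abca1 and Plin2 in muscle sit near a threshold, and low genes (Apoa1, Apoa4, Abcg1 in muscle, Apod in cells) rest on few reads.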
